A study of Mus musculus with 15 samples.

Results

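Mouse embryonic stem cells kept in a Matrigel culture with PD032 and an Aurora kinase A inhibitor together were compared with the same cells in 2iLif, gene by gene. The comparison used 6 of the 15 libraries of the series, 3 from each medium. They were chosen by their medium labels and by no expression value. The comparison itself and the gene lists below were set with earlier results of these data known. All 49585 genes of the count table entered, and 15223 had counts high enough over the 15 libraries to be tested. Some of these passed only through groups outside the comparison. With the 6 libraries alone, 13693 genes were tested. The question was how far the medium with both inhibitors gave the transcript levels of 2iLif, and at which genes it did not.

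All groups came from E14, a single mouse embryonic stem cell line, labelled wild type. Per the labels, the maintenance medium before the gel culture held CHIR99021 at 3 µM, PD0325901 at 0.4 µM and Lif at 4 ng/ml. The cells then went into Matrigel low in growth factors, 2000 per µl, under N2B27, a serum-free basal medium. That medium carried 2iLif in one group and PD032+ Aurka inh in the other, called the combination below. The other 3 groups, with 3 libraries each, received PD032, Aurka inh or FGF2/Activin (also written FAK in the labels), and their values are given only beside the combination. The labels do not expand PD032, name no Aurora compound, give no dose or time for the gel culture, and name neither CHIR99021 nor Lif for the combination. There was no group in N2B27 alone, so what the basal medium itself does to a gene was not measured.

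As background, 2iLif holds mouse embryonic stem cells in naive pluripotency, the state of the preimplantation epiblast. PD0325901 blocks MEK and with it ERK, the kinase through which FGF4 drives cells out of that state. CHIR99021 blocks GSK3, which stabilises beta-catenin and relieves repression by TCF7L1, and Lif acts through the receptors LIFR and gp130 on the transcription factor STAT3. Cells that leave the naive state lose factors such as Klf4, Esrrb and Tfcp2l1 and gain those of the formative epiblast, such as Otx2 and the de novo DNA methyltransferases. Aurora kinase A builds the mitotic spindle.

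Total counts ran from 15199507 to 15818758 in the 2iLif libraries and from 19304585 to 24202544 in the combination libraries. The biological coefficient of variation, the spread between libraries left after counting noise, was 4.52% within 2iLif and 8.91% within the combination. Combination replicate 2 stood farther from replicates 1 and 3, with chi-squared over degrees of freedom for gene counts at 15 and 9.48, than those did from each other, at 4.91. Within 2iLif, replicate 3 stood apart from replicates 1 and 2 at 6.54 and 5.78, against 1.32 between them. Without combination replicate 2, 3535 genes were higher and 3504 lower, and without 2iLif replicate 3, 3020 and 3207, against 3616 and 3627 with all libraries. The file names given in the labels follow one style for 2iLif and FGF2/Activin and another for the 3 inhibitor groups. No inhibitor group has a library in the style of 2iLif, so a batch that goes with the naming style and the media cannot be told apart, and no value within one style exists for this comparison. The labels do not say that replicates were separate cultures. A p-value here is set against the spread between libraries within the 5 groups, which the fit shares, and that spread may be technical. At some genes, such as Egr1 and Dazl, replicate 2 stood apart in the same direction in all 3 inhibitor groups. Whether same-numbered inhibitor libraries are independent was not tested.

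The combination differed from 2iLif at many genes, mostly by small amounts. Of the 15223 genes tested, 3616 were higher (23.8%) and 3627 lower (23.8%), 47.6% in all, at an adjusted p under 0.05 by edgeR's quasi-likelihood test with Benjamini-Hochberg adjustment. The median size of the difference over all genes was 0.298 on the log2 scale, where differences are always the combination minus 2iLif. A difference beyond 2-fold passed its own test at 983 genes (6.46%), of which 435 were higher and 548 lower. At 10153 genes (66.7%) the 95% interval of the difference lay wholly within 2-fold, called "held within 2-fold" below, and 4087 genes were in neither class. Of the genes called different, 4134, or 57.1%, were also held within 2-fold. Among called genes, 767 had estimates over 4-fold and 121 over 16-fold.

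**Figure D1:**
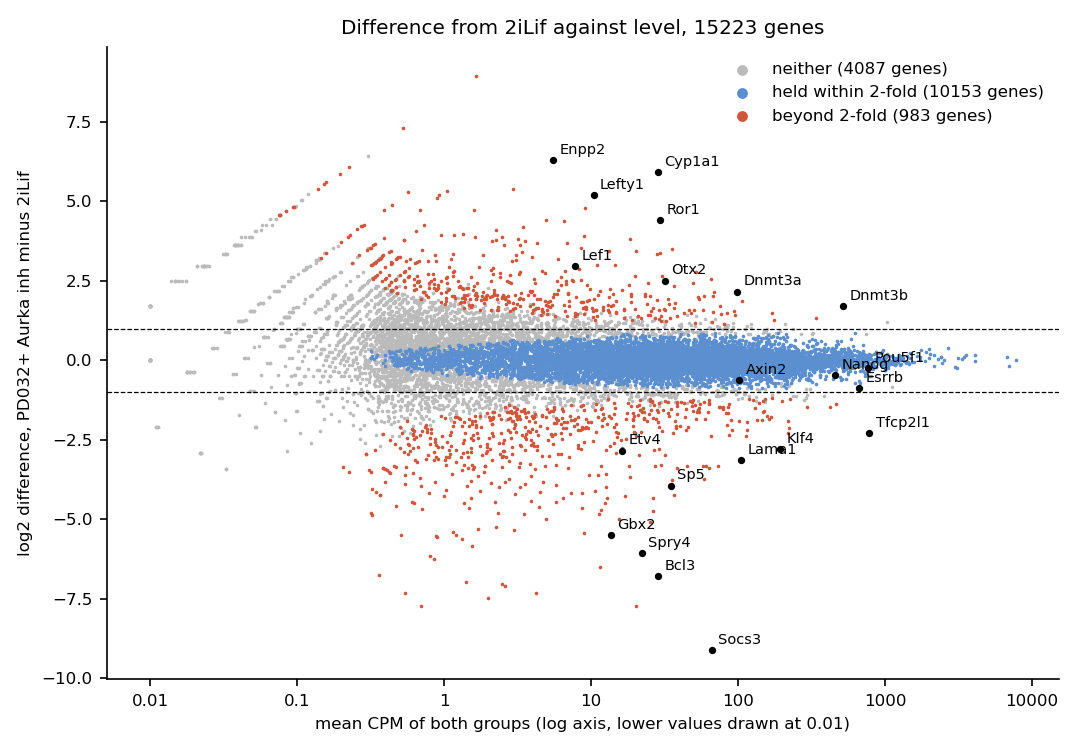
Log2 difference between the combination and 2iLif (vertical axis) against the mean CPM of both groups (horizontal log axis) for the 15223 genes tested, coloured by class, with dashed lines at 2-fold and named genes in black. Of the labelled genes Socs3 lies lowest, at -9.12, while Nanog, Pou5f1 and Axin2 lie within the 2-fold lines.

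Set beside the other media, each compared with the same 2iLif libraries, PD032 alone had 63.0% of genes called and 2383 beyond 2-fold. Aurka inh alone had 58.4% called and 1996 beyond 2-fold. FGF2/Activin had 65.9% called and 3101 beyond 2-fold. Genes held within 2-fold numbered 9327 for PD032, 9380 for Aurka inh and 8668 for FGF2/Activin. These counts share the 2iLif libraries, and no test between them was made.

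How much of the transcriptome was held depended on the level. Levels are given as CPM, the count relative to the scaled library total. Among the 2576 genes with a mean over 100 CPM, 96.7% were held within 2-fold and 34 lay beyond it. Of the 6243 genes between 10 and 100 CPM, 89.7% were held. Between 1 and 10 CPM it was 49.3% of 3680 genes, and under 1 CPM 9.1% of 2724 genes, where few reads make the intervals wide. The list counts that follow stand beside these shares and beside the 23.8% of all genes called in each direction, and a list count near them is no trait of the list. The 34 abundant genes beyond 2-fold, singled out after their values were seen, comprised 29 lower and 5 higher. The lower ones included Klf4, Tfcp2l1, Klf5 and Stat3, factors of the naive network, the receptor genes Kit and Fzd5, the cytoskeletal gene Vim, and the basement membrane genes Lama1 and Hspg2. Vim, an intermediate filament, went from 616 to 221 CPM (log2 difference -1.48, SE 0.066, adjusted p = 5.7e-11). The 5 higher ones were Dnmt3b, Ddit4, Col18a1, Slc25a4 and Ina. Ina, a neuronal intermediate filament, rose from 45.7 to 168 CPM (log2 difference 1.88, SE 0.12, adjusted p = 2.7e-09), and Col18a1, a basement membrane collagen, from 88.9 to 250 CPM (1.49, SE 0.049, adjusted p = 2.0e-12).

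**Figure D2:**
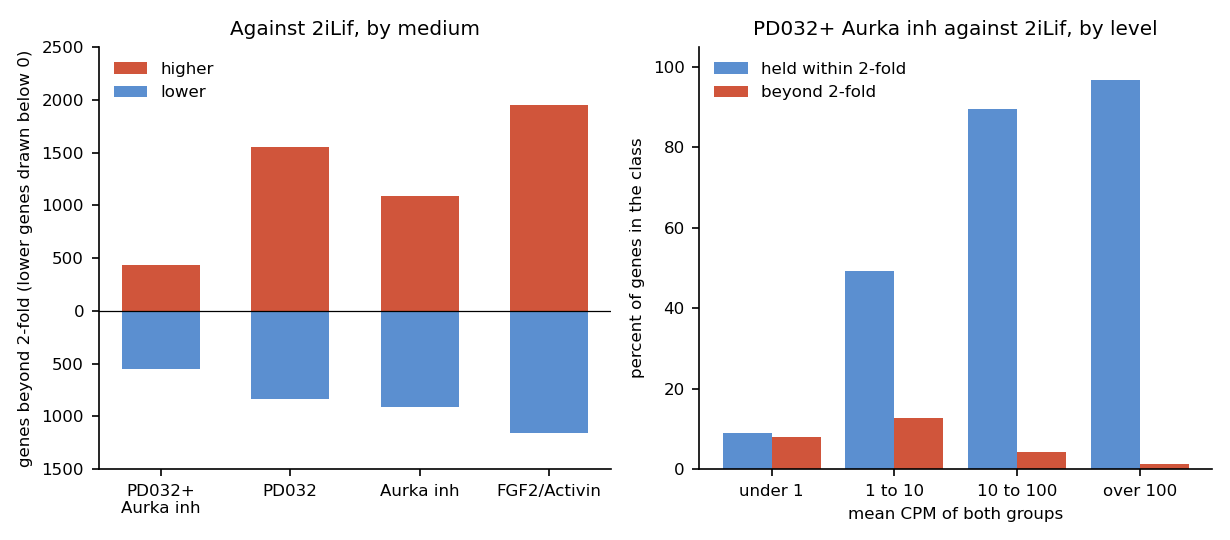
Left, genes beyond 2-fold against 2iLif in each medium, higher genes above 0 and lower genes below it; the combination has 435 and 548. Right, percent of genes held within 2-fold and beyond 2-fold in the combination by class of mean CPM; the held share goes from 9.1% under 1 CPM to 96.7% over 100 CPM.

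The Lif and STAT3 pathway was the list farthest below 2iLif by its median. All 14 members tested, of 15 listed, passed: 13 were lower and 1 higher, 9 of the lower ones beyond 2-fold, with a median log2 difference of -1.81 against 0.014 over all genes. The list was below 2iLif in the other media too, with medians of -1.46 in PD032, -1.73 in Aurka inh and -1.41 in FGF2/Activin. Osmr had too few counts to be tested.

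Socs3 (ENSMUSG00000053113, mm10 chr11:117966079-117970047) encodes the feedback inhibitor that STAT3 induces. It stood at 131, 133 and 133 CPM in the 2iLif libraries and at 0.184, 0.366 and 0.167 CPM in the combination libraries. The groups did not overlap, and the difference of -9.12 on the log2 scale (SE 0.34, adjusted p = 7.1e-12) was the largest downward one among the named genes. Socs3 was at 4.13 ± 2.34 CPM in PD032 and 2.74 ± 0.471 CPM in Aurka inh (mean ± SD, n = 3 libraries each). Bcl3, a nuclear IkB protein and STAT3 target, had 54.6, 55.5 and 59.7 CPM in 2iLif and 0.691, 0.313 and 0.5 CPM in the combination (log2 difference -6.78, SE 0.16, adjusted p = 4.8e-14). Junb, an AP-1 factor, went from 19, 17.7 and 16.9 CPM to 1.38, 1.25 and 1.67 CPM (-3.62, SE 0.21, adjusted p = 1.2e-09). None of these 3 targets had a combination library within the 2iLif range, which the naming rule required of Socs3 and Bcl3. The share of all genes tested whose groups did not overlap is not given. Non-overlap, here and below, thus describes a gene and does not set it apart from other genes.

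Icam1, an adhesion molecule, fell by 2.47 on the log2 scale (SE 0.093, adjusted p = 8.1e-12), with 28 to 31 CPM in 2iLif and 4.97 to 5.5 CPM in the combination. Stat3 itself, which STAT3 also regulates, had 191, 185 and 184 CPM in 2iLif and 43.2, 36.6 and 43.4 CPM in the combination (-2.18, SE 0.083, adjusted p = 8.8e-12). The kinase gene Pim3 went from 128 to 140 CPM down to 30.7 to 35.8 CPM. Stat3, Pim3 and Lifr were named after their values were seen. The receptor subunit genes Lifr and Il6st were held within 2-fold, with log2 differences of -0.24 (adjusted p = 0.036) and -0.23 (adjusted p = 0.016). The call on Il6st was lost without combination replicate 3, at an adjusted p of 0.07. Socs2, another member of the SOCS family, was the one gene of the list that was higher, by 0.23 (adjusted p = 0.0073).

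The promoter of Socs3 is shown because this gene had the largest decrease of those named and because STAT3 binds motifs of the form TTCNNNGAA, which reads the same on both strands. The sequence is the 250 bases before the RefSeq start on build GRCm38.p6, chr11:117969367-117969616 on the minus strand, with the motif in capitals. In GENCODE M21 the protein-coding transcript starts farther downstream, and noncoding transcripts of the same locus overlap the window.
Socs3: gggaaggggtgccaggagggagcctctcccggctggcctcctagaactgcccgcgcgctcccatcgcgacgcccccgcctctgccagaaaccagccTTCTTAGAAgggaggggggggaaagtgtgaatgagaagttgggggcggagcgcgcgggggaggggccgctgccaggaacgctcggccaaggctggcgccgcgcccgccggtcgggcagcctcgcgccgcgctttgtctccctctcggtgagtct
The motif was found upstream of 4 of the 14 listed genes with a RefSeq promoter, Bcl6, Icam1, Irf1 and Socs3, a share of 28.6%. Over all 27025 genes of the promoter table the share was 8.13%. Genes can have several starts: by promoter, the motif was in 27.8% of the 18 of the list and in 7.02% of all 32851. A match of letters is a description of the sequence and does not show binding.

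**Figure D3:**
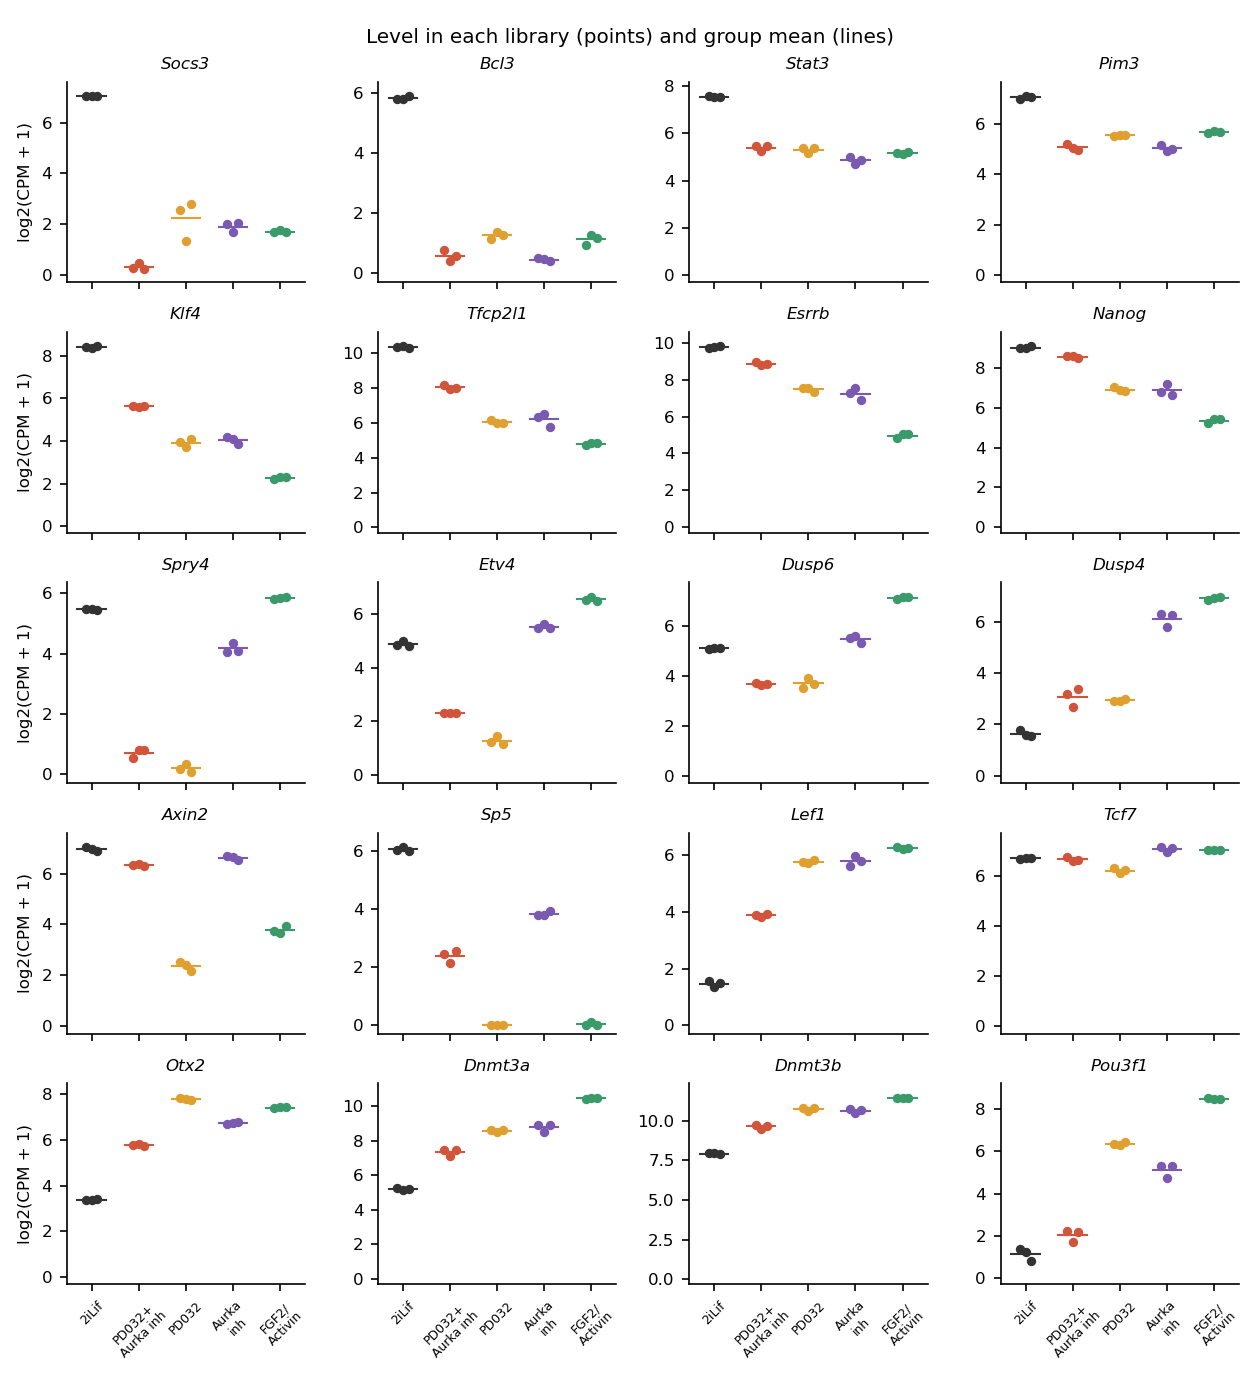
Level of 20 genes in each of the 15 libraries, as log2(CPM + 1), with points for libraries, lines for group means and media along the horizontal axis. Rows show the STAT3 pathway, naive factors, ERK-related genes, Wnt-related genes and the formative state; Socs3 is far below its 2iLif level in the 4 other media, while Axin2 is closer to its 2iLif level in the combination and in Aurka inh than in the other 2.

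Naive pluripotency factors were split between genes that kept close to 2iLif and genes that did not. Of 20 members, all tested, 14 were lower, 2 higher and 4 did not pass; 10 were held within 2-fold. Beyond 2-fold were 5 lower members and 1 higher. The median log2 difference was -0.54 in the combination, beside -1.83 in PD032, -2.18 in Aurka inh and -3.51 in FGF2/Activin.

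Klf4 (ENSMUSG00000003032, mm10 chr4:55527143-55532466), a STAT3-responsive factor, had 336, 330 and 347 CPM in 2iLif and 49.3, 47.1 and 48.6 CPM in the combination, a log2 difference of -2.80 (SE 0.082, adjusted p = 7.7e-13). Its level in single inhibitors was lower still, at 14.3 ± 2.16 CPM in PD032 and 15.7 ± 1.84 CPM in Aurka inh. Tfcp2l1, another factor downstream of STAT3, went from 1320, 1340 and 1250 CPM to 293, 246 and 253 CPM (-2.30, SE 0.13, adjusted p = 6.2e-10). Gbx2, a homeobox gene that answers to STAT3, had 28.1, 27.2 and 24.3 CPM in 2iLif against 0.737, 0.261 and 0.708 CPM (-5.49, SE 0.22, adjusted p = 1.2e-11). In all 3 genes the combination libraries lay below every 2iLif library.

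Esrrb, an orphan nuclear receptor repressed by TCF7L1, had 837, 861 and 890 CPM in 2iLif and 495, 448 and 460 CPM in the combination (-0.88, SE 0.11, adjusted p = 5.7e-06). Nanog had 517, 519 and 554 CPM against 392, 397 and 365 CPM (-0.46, SE 0.10, adjusted p = 0.0013) and was held within 2-fold. Its level was 121 ± 8.67 CPM in PD032 and 119 ± 24.1 CPM in Aurka inh. For both genes the combination libraries were below the 2iLif range and above every library of the single inhibitors. Zfp42, a marker of naive cells also known as Rex1, had 296 to 357 CPM against 458 to 464 CPM in 2iLif (-0.51, adjusted p = 0.033). That call was lost with DESeq2 (adjusted p = 0.075) and without any 1 library other than combination replicate 2 (0.069 to 0.10).

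Klf2, a factor that MEK inhibition stabilises, had 260, 259 and 265 CPM in 2iLif and 239, 252 and 234 CPM in the combination. Its difference of -0.11 did not pass (adjusted p = 0.48) and had an interval from -0.35 to 0.12. Nr5a2, an orphan receptor, had 165 to 179 CPM against 174 to 184 CPM (0.07, interval -0.16 to 0.30). Sox15 had 8.73 to 11.5 CPM against 8.77 to 11.3 CPM (0.00, interval -0.28 to 0.30). These 3, named after their values were seen, are the naive genes with the smallest differences. Dppa3, a maternal-effect gene also known as Stella, rose from 4.29, 3.58 and 4.17 CPM to 13.5, 15.5 and 15.2 CPM (1.88, SE 0.22, adjusted p = 3.4e-06). Dppa3, Nanog and Pou5f1 have processed pseudogenes, and reads shared with these may have been assigned either way.

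Core pluripotency genes, expressed in naive and primed cells alike, were held within 2-fold at 12 of 13, with 7 lower, 4 higher and 2 not passing. Of the 13, 11 had a mean over 100 CPM, where 96.7% of all genes were held; 84.6% of the list was called, against 47.6% of all genes. Pou5f1 had 810, 820 and 858 CPM in 2iLif and 623, 768 and 723 CPM in the combination (-0.23, SE 0.088, adjusted p = 0.037). The call was lost with library size alone, with GC-corrected counts and without any 1 library other than combination replicate 2, at adjusted p from 0.051 to 0.30. Sox2 had 494 to 518 CPM against 461 to 489 CPM, and its difference of -0.09 did not pass (adjusted p = 0.56, interval -0.31 to 0.14). Sall4 fell by 0.61 (SE 0.054, adjusted p = 1.4e-07), from 309 to 314 CPM to 196 to 214 CPM. Utf1, an epiblast chromatin factor, rose from 148 to 161 CPM to 266 to 276 CPM (0.81, SE 0.055, adjusted p = 6.9e-09). Tdgf1, the Nodal co-receptor Cripto, was the one core gene beyond 2-fold, with 419, 418 and 450 CPM in 2iLif and 156, 147 and 162 CPM in the combination (-1.47, SE 0.055, adjusted p = 7.6e-12). These levels of Pou5f1, Sox2 and Sall4 fit the label of embryonic stem cells in all 6 libraries.

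ERK-related genes were called in each direction at shares near those of all genes. Of 20 listed, 18 were tested: 6 were lower, 4 higher and 8 did not pass, with 4 lower and 1 higher beyond 2-fold and 7 held, against 23.8% of all genes called each way and 66.7% held. Spry4, an inhibitor of receptor tyrosine kinase signalling that ERK induces, had 43.5, 44.2 and 43 CPM in 2iLif and 0.46, 0.731 and 0.749 CPM in the combination. That was a log2 difference of -6.06 (SE 0.15, adjusted p = 1.4e-13). Spry4 was at 0.149 ± 0.113 CPM in PD032, 17.1 ± 2.04 CPM in Aurka inh and 56.8 ± 1.55 CPM in FGF2/Activin.

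Etv4, an ETS factor induced by FGF, went from 28.1, 31 and 26.7 CPM to 3.96, 4.02 and 3.96 CPM (-2.84, SE 0.095, adjusted p = 2.3e-12). Dusp6, the phosphatase that removes ERK's activating phosphates, went from 32.3, 33.7 and 33 CPM to 11.9, 11.5 and 11.6 CPM (-1.50, SE 0.092, adjusted p = 2.2e-09). Myc fell by 1.82 (SE 0.13, adjusted p = 1.5e-08), from 20.9 to 21.5 CPM to 5.16 to 7.1 CPM. In these 3 genes, too, all combination libraries lay below all 2iLif libraries.

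Dusp4, another MAP kinase phosphatase, moved the other way, from 2.4, 2.03 and 1.89 CPM to 8.06, 5.33 and 9.37 CPM (1.86, SE 0.24, adjusted p = 9.1e-06). Etv5 had 312 to 319 CPM in 2iLif and 317 to 365 CPM in the combination; its difference of 0.13 did not pass (adjusted p = 0.063), and its interval from 0.01 to 0.25 was held within 2-fold. Egr1, an immediate early gene, was at 16.1, 11.1 and 10.5 CPM in 2iLif and at 45.9, 0.783 and 41 CPM in the combination, where replicate 2 lay below and the other 2 libraries above the 2iLif range. Its difference did not pass (adjusted p = 0.24) and was 1.79 with an adjusted p of 0.025 without combination replicate 2.

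Targets of Wnt and beta-catenin lay on both sides of 2iLif. Of 16 listed, 15 were tested, with 5 higher, 6 lower and 4 not passing. The median log2 difference was 0.04 and the mean -0.48, so the centre of the list has no single sign. Axin2 (ENSMUSG00000000142, mm10 chr11:108920349-108950783), the negative-feedback scaffold used as a readout of beta-catenin, had 130, 124 and 118 CPM in 2iLif and 79.9, 82.4 and 77.9 CPM in the combination. The decrease of 0.63 on the log2 scale (SE 0.071, adjusted p = 2.4e-06) was held within 2-fold. Axin2 stood at 4.11 ± 0.626 CPM in PD032, 97.2 ± 4.69 CPM in Aurka inh and 12.8 ± 1.34 CPM in FGF2/Activin.

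Sp5 (ENSMUSG00000075304, mm10 chr2:70474923-70477729), a zinc-finger repressor downstream of Wnt, had 64.3, 68.9 and 62.8 CPM in 2iLif and 4.47, 3.39 and 4.79 CPM in the combination (-3.94, SE 0.12, adjusted p = 8.1e-12). It was at 0 in every PD032 library and at 13.3 ± 0.73 CPM in Aurka inh. Cdx1, a caudal homeobox gene, went from 8.51, 10.4 and 9.7 CPM to 0.138, 0.522 and 0.25 CPM (-4.99, SE 0.30, adjusted p = 2.0e-09). Dkk1, a secreted Wnt antagonist, fell by 2.43 (SE 0.46, adjusted p = 0.00039), from 0.651 to 1.23 CPM to 0.157 to 0.184 CPM. The 2 groups did not overlap at any of these 4 genes.

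Lef1 (ENSMUSG00000027985, mm10 chr3:131110471-131224356), a TCF-family factor gained on leaving the naive state, rose from 1.95, 1.56 and 1.82 CPM to 13.9, 13.3 and 14.3 CPM (2.96, SE 0.13, adjusted p = 5.0e-11). It was higher still, at 53.5 ± 1.78 and 54.7 ± 7.04 CPM, in PD032 and Aurka inh. Ccnd1, encoding cyclin D1, rose by 0.22 (adjusted p = 0.0069) and was held within 2-fold.

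The promoters of Axin2 and Sp5 are set side by side because both genes are read as Wnt targets and one was held within 2-fold here while the other was not. TCF and LEF proteins bind CTTTGA, searched on both strands and shown in capitals. The windows are the 250 bases before the RefSeq starts on GRCm38.p6, chr11:108920099-108920348 for Axin2 and chr2:70474673-70474922 for Sp5, both on the plus strand and both at starts that GENCODE M21 also has.
Axin2: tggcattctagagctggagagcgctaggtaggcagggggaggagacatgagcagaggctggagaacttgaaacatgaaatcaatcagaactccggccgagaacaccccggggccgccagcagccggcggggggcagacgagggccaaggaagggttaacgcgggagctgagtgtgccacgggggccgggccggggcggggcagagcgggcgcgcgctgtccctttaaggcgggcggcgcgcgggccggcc
Sp5: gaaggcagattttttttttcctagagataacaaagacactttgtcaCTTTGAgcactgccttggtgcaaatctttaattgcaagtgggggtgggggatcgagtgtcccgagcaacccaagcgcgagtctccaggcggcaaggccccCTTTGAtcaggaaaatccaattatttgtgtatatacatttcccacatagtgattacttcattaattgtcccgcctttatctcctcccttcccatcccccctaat
The motif occurred 2 times in the window of Sp5 and not in that of Axin2. Sequence outside the 250 bases was not searched, so a window without a match does not show a gene without TCF sites. Whether the motif has a part in the difference between the 2 genes was not tested. It was found for 5 of the 10 listed Wnt genes with a RefSeq promoter (Dkk1, Lef1, Sp5, Sp8 and Tnfrsf19; 50%) and for 15.8% of all genes in the promoter table. By promoter the shares were 27.8% of the 18 of the list and 13.8% of all 32851. Lef1 counts here through a start inside the gene, and its 3 windows near the gene start hold no match.

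Genes of the formative or primed state were the list farthest above 2iLif by its median. Of 16 members, 12 were higher, 8 of them beyond 2-fold, 1 was lower and 3 did not pass, and the median log2 difference was 1.58. PD032 gave a median of 3.02 for this list, Aurka inh 2.76 and FGF2/Activin 3.49. Otx2 (ENSMUSG00000021848, mm10 chr14:48657677-48673819), the factor that opens formative enhancers, had 9.23, 9.33 and 9.64 CPM in 2iLif and 53.1, 55 and 52.9 CPM in the combination (2.51, SE 0.055, adjusted p = 2.7e-14). It was at 222 ± 6.03 CPM in PD032 and 106 ± 3.45 CPM in Aurka inh. Grhl2, an epithelial transcription factor, went from 1.43, 2.03 and 1.76 CPM to 11.2, 9.14 and 11.9 CPM (2.63, SE 0.16, adjusted p = 2.5e-09). Zic2 rose from 26.2, 27.5 and 27 CPM to 124, 89 and 113 CPM (2.02, SE 0.11, adjusted p = 7.4e-10).

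Both de novo DNA methyltransferase genes of this list were higher. Dnmt3a went from 37, 34.8 and 36 CPM to 175, 136 and 172 CPM (2.16, SE 0.11, adjusted p = 2.4e-10) and Dnmt3b from 242, 246 and 237 CPM to 852, 711 and 811 CPM (1.71, SE 0.073, adjusted p = 3.1e-11). Dnmt3b stood at 1690 ± 128 CPM in PD032 and 1560 ± 120 CPM in Aurka inh. No library of the combination fell within the 2iLif range of either gene. Fgf5, the classic marker of primed epiblast, had 3 counts in all 2iLif libraries and 19 in all combination libraries, a ratio of 4.44 with a counting interval from 1.31 to 23.4, and did not pass (adjusted p = 0.17). In PD032 it was at 18.7 CPM and in FGF2/Activin at 82.6 CPM. Nkx1-2 rose by 0.72 (SE 0.11, adjusted p = 5.3e-05) and was held within 2-fold. Its mean was 26.1 CPM in 2iLif, 36.7 CPM in Aurka inh, 0.16 CPM in PD032 and 1.16 CPM in FGF2/Activin. In PD032 and FGF2/Activin it thus went against the median of its list. Lin28b did not pass (0.05, interval -0.41 to 0.48).

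Of the 8 other DNA methylation enzymes, 7 were held within 2-fold, with 2 higher and 3 lower. Of these 8, 5 had a mean over 100 CPM and 2 from 10 to 100 CPM. At those levels 96.7% and 89.7% of all genes were held, so the count is no trait of the list. Uhrf1, which brings DNMT1 to replicated DNA, fell by 0.49 (SE 0.047, adjusted p = 3.8e-07), from 843 to 872 CPM to 605 to 622 CPM. Tet1, a 5-methylcytosine oxidase, fell by 0.61 (SE 0.13, adjusted p = 0.001), and Tet3 rose by 0.64 (SE 0.19, adjusted p = 0.013) from 3.71 to 4.94 CPM. The call on Tet3 was lost without 2iLif replicate 3 (adjusted p = 0.06).

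Nodal and Activin signalling, which maintains the epiblast, gave 4 higher, 4 lower and 4 not passing of 12, with 6 held, beside 23.8% of all genes each way and 66.7% held. Lefty1, a Nodal antagonist and target, rose from 0.39, 0.338 and 0.912 CPM to 25.6, 11.5 and 23.6 CPM (5.20, SE 0.50, adjusted p = 4.1e-07). Skil, a SMAD corepressor induced by the pathway, rose from 25.5, 25.8 and 24.2 CPM to 124, 91.1 and 117 CPM (2.14, SE 0.13, adjusted p = 2.9e-09). Nodal itself rose by 0.54 (SE 0.096, adjusted p = 0.00022) and was held. Smad7, the inhibitory SMAD, fell by 1.33 (SE 0.10, adjusted p = 3.0e-08), from 38.1 to 43.9 CPM to 13.7 to 18.5 CPM, and Pcsk6, a proprotein convertase that matures Nodal, by 1.10 (SE 0.14, adjusted p = 1.1e-05). The median of the list ran from 0.03 to 0.30 over the alternatives.

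BMP and Id genes were lower at 6 of 10 tested and higher at 1, with 3 beyond 2-fold, 4 held and a median of -0.81. Bmp4, the ligand that acts with Lif in serum-free culture, had 54.9, 54.3 and 52.7 CPM in 2iLif and 5.39, 5.54 and 5.62 CPM in the combination (-3.29, SE 0.16, adjusted p = 1.7e-10). Smad9, a BMP-responsive SMAD, went from 6.95, 6.49 and 6.77 CPM to 0.0921, 0.47 and 0.167 CPM (-4.82, SE 0.32, adjusted p = 6.1e-09). Id1, an inhibitor of basic helix-loop-helix factors, went from 6.56, 5.34 and 5.14 CPM to 1.01, 0.94 and 1.37 CPM (-2.34, SE 0.18, adjusted p = 2.8e-08). Id3, far more abundant at 55 to 57.6 CPM in 2iLif, fell by 0.29 and was held, with an adjusted p of 0.0068 that was 0.052 with GC-corrected counts. The receptor gene Bmpr1a was higher by 0.18, with an adjusted p of 0.02. That call was lost with GC-corrected counts (0.66), without combination replicate 1 (0.12) and without 2iLif replicate 3 (0.084).

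**Figure D4:**
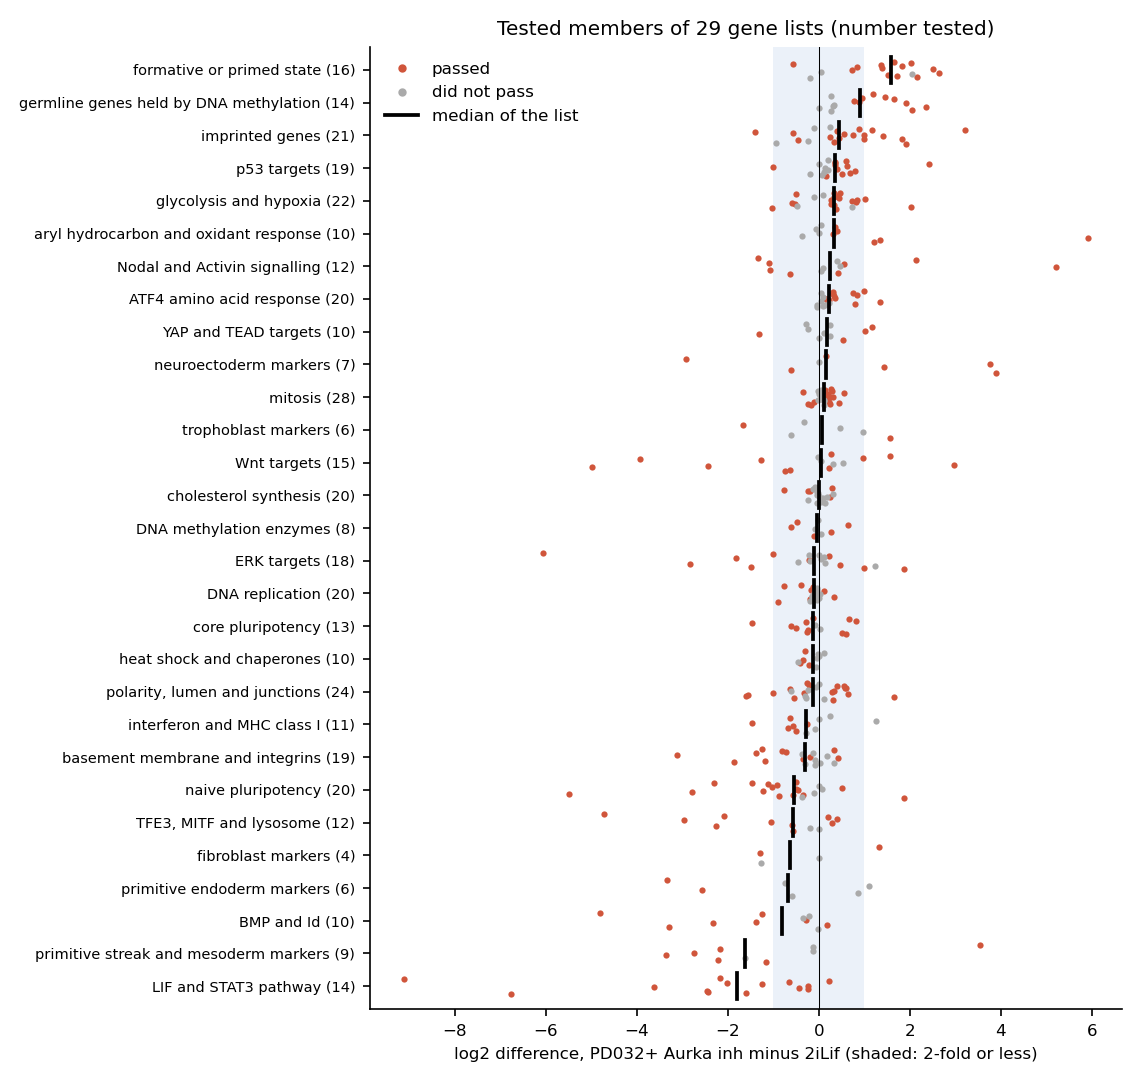
Log2 difference between the combination and 2iLif for the tested members of 29 gene lists, ordered by the median of the list (black bar); red points passed, grey points did not, and the shaded band marks 2-fold or less. The Lif and STAT3 pathway lies lowest at a median of -1.81 and the formative state highest at 1.58, while every tested member of cholesterol synthesis and of mitosis lies within the band.

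TFE3, MITF and lysosomal genes include the MITF targets first described in pigment cells; TFE3 itself supports self-renewal. Of 12 tested, 7 were lower, 3 higher and 2 did not pass, with 4 beyond 2-fold, 7 held and a median of -0.58. Trpm1, a channel gene within the MITF programme, had 51.4, 47.1 and 54.3 CPM in 2iLif and 1.93, 1.98 and 1.83 CPM in the combination (-4.73, SE 0.15, adjusted p = 1.3e-12). Pmel, a melanosome matrix protein, went from 34.9, 38.6 and 38.6 CPM to 4.88, 4.75 and 4.62 CPM (-2.97, SE 0.094, adjusted p = 1.5e-12). Kit, the receptor of stem cell factor, went from 362, 369 and 358 CPM to 73.6, 83.2 and 69 CPM (-2.27, SE 0.10, adjusted p = 5.0e-11), and stood at 16.6 and 12.9 CPM in PD032 and Aurka inh. Tfeb, encoding a relative of TFE3, fell by 2.09 (SE 0.11, adjusted p = 2.1e-10). Tfe3 was at 189 to 195 CPM against 208 to 235 CPM and held within 2-fold.

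Basement membrane and integrin genes were lower at 9 of 19 and higher at 2, with 3 beyond 2-fold, 13 held and a median of -0.31. The cells sat in Matrigel, itself a basement membrane extract, in both groups. Lama1, the laminin alpha chain of the embryonic basement membrane, had 194, 192 and 179 CPM in 2iLif and 23, 22.5 and 19.3 CPM in the combination (-3.13, SE 0.11, adjusted p = 2.5e-12). Hspg2, encoding perlecan, went from 263, 276 and 224 CPM to 80.1, 58.1 and 72.1 CPM (-1.86, SE 0.16, adjusted p = 1.4e-07). Lamb2 fell by 1.39 (SE 0.098, adjusted p = 1.2e-08) and Sparc, a collagen-binding matricellular protein, by 1.26 (SE 0.16, adjusted p = 8.8e-06). Lamc1, the common laminin gamma chain, fell by 0.72 and was held, at 783 to 874 CPM against 481 to 535 CPM.

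Polarity, lumen and junction genes, of interest because embryonic stem cells in Matrigel can form a lumen on leaving the naive state, gave 9 higher, 8 lower and 7 not passing of 24, with 17 held. Podxl, the apical sialomucin of the lumen surface, had 21.4, 18.7 and 18.9 CPM in 2iLif and 35.8, 18.6 and 34 CPM in the combination, where replicate 2 lay at the low end of the 2iLif values. Its difference of 0.59 had an adjusted p of 0.048, which was 0.003 (difference 0.83) without combination replicate 2 and 0.072 to 0.19 without any other 1 library. Podxl was at 373 CPM in PD032, 131 CPM in Aurka inh and 202 CPM in FGF2/Activin. Cldn6, an embryonic claudin, rose from 4.29, 5.21 and 5.08 CPM to 14.6, 17.7 and 13.6 CPM (1.65, SE 0.18, adjusted p = 1.3e-06). Crb3, an apical polarity gene, fell by 1.57 (SE 0.12, adjusted p = 2.1e-08), Cldn7 by 1.61 (SE 0.26, adjusted p = 0.00012) and Llgl2, a basolateral polarity gene, by 1.01 (SE 0.077, adjusted p = 2.9e-08). Cdh1, encoding E-cadherin, rose by 0.30 (SE 0.041, adjusted p = 2.1e-05) and was held.

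Mitotic genes, where an effect of an Aurora inhibitor on the cell cycle might be read, were held within 2-fold at 28 of 28 tested, with 14 higher, 4 lower and a median of 0.12. Of these, 26 had a mean over 100 CPM, a level at which 96.7% of all genes were held. With GC-corrected counts 9 were higher, and the number lower was 2 with library size alone and without combination replicate 2. Aurka had 166, 166 and 175 CPM in 2iLif and 181, 183 and 178 CPM in the combination; the difference of 0.10 did not pass (adjusted p = 0.13, interval -0.01 to 0.20). A transcript level does not measure the kinase activity that the inhibitor acts on. Plk1, the kinase that Aurora A activates, rose by 0.28 (SE 0.040, adjusted p = 2.4e-05), from 151 to 155 CPM to 183 to 190 CPM. Mki67, the proliferation marker, rose by 0.54 (SE 0.066, adjusted p = 5.3e-06), Bora, a cofactor of Aurora A, by 0.43 and Cenpf by 0.30, while Nek2 fell by 0.36 (SE 0.045, adjusted p = 7.3e-06).

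Among DNA replication genes 19 of 20 were held, 2 higher and 6 lower, with a median of -0.10. At their level, with 13 members over 100 CPM and 7 from 10 to 100 CPM, the held shares of all genes were 96.7% and 89.7%, and 23.8% of all genes were lower. With GC-corrected counts 11 were lower. Ccne1, encoding cyclin E1, was the member not held, going from 191, 198 and 204 CPM to 109, 94.9 and 117 CPM (-0.89, SE 0.070, adjusted p = 4.3e-08). Tk1, thymidine kinase, fell by 0.76 (SE 0.071, adjusted p = 3.0e-07). The replicative helicase genes Mcm3 and Mcm5 did not pass, with intervals from -0.08 to 0.12 and from -0.17 to -0.01.

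Targets of p53 were higher at 11 of 19 and lower at 1, with a median of 0.35 and 16 held. Pmaip1, the pro-apoptotic Noxa, rose from 1.75, 2.16 and 2.41 CPM to 10.6, 11.4 and 11.8 CPM (2.41, SE 0.18, adjusted p = 2.1e-08) and was at 74.6 CPM in Aurka inh. Ccng1, encoding cyclin G1, rose by 0.68 (SE 0.049, adjusted p = 1.6e-08), and the p53-induced receptor gene Eda2r by 0.79 (SE 0.10, adjusted p = 1.0e-05). The most used p53 targets did not pass: Cdkn1a, encoding p21, had 126 to 137 CPM against 132 to 153 CPM (0.12, interval -0.01 to 0.23) and Mdm2 118 to 134 CPM against 138 to 139 CPM (0.13, interval 0.02 to 0.24).

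In the ATF4 amino acid response 12 of 20 were higher and none lower, against 23.8% of all genes for each direction, and 17 were held. Ddit4, a stress-induced inhibitor of mTORC1, rose from 191, 176 and 207 CPM to 517, 457 and 480 CPM (1.34, SE 0.076, adjusted p = 7.6e-10), and Chac1, a glutathione-degrading enzyme, by 0.79 (SE 0.064, adjusted p = 5.9e-08). Asns, asparagine synthetase, did not pass (0.09, interval -0.01 to 0.19). Cholesterol synthesis had the median nearest 0 of the lists, with all 20 genes held, 2 higher, 3 lower and a median of -0.01. Of the 20, 11 had a mean over 100 CPM and 9 from 10 to 100 CPM, where 96.7% and 89.7% of all genes were held. Pmvk moved most of these, falling by 0.77 (SE 0.075, adjusted p = 5.6e-07).

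Glycolysis and hypoxia genes were higher at 14 of 22 and lower at 4, with 15 held and a median of 0.33. Bnip3, a mitophagy gene induced by hypoxia, rose from 8.97, 8.12 and 12.6 CPM to 46.3, 31.9 and 42.1 CPM (2.02, SE 0.16, adjusted p = 4.4e-08). The phosphofructokinase genes Pfkm and Pfkl rose by 1.02 (SE 0.054) and 0.83 (SE 0.11), and Pkm, pyruvate kinase, by 0.39 (SE 0.058). Aldoc, a brain-type aldolase, fell by 1.03 (SE 0.099, adjusted p = 4.2e-07). Heat shock and chaperone genes were lower at 4 of 10 and higher at none, all 10 held. Of the 10, 8 had a mean over 100 CPM, where 96.7% of all genes were held. The endoplasmic reticulum chaperones Hsp90b1 and Hspa5 fell by 0.41 (SE 0.079) and 0.35 (SE 0.059).

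Cyp1a1, the enzyme gene induced by the aryl hydrocarbon receptor, was the second largest increase by the naming rule. It had 0.91, 1.01 and 0.847 CPM in 2iLif and 38.2, 94.8 and 35.2 CPM in the combination (5.91, SE 0.57, adjusted p = 4.2e-07), and 5.30 without combination replicate 2. Cyp1a1 was at 40.5 ± 16.2 CPM in PD032, 2.52 ± 2.04 CPM in Aurka inh and 0.753 ± 0.214 CPM in FGF2/Activin. The receptor gene Ahr rose by 1.20 (SE 0.13, adjusted p = 1.4e-06). Over its list 6 of 10 were higher and none lower; Txnrd1, an oxidant-response gene, was held at 0.04.

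YAP and TEAD targets gave 3 higher, 1 lower and 6 not passing of 10. The lower one was Ccn1, a matricellular protein, by 1.31 (SE 0.24, adjusted p = 0.00034), and among the higher ones were Lats2, the kinase that restrains YAP, by 1.16 (SE 0.16, adjusted p = 1.6e-05) and Crim1 by 1.02 (SE 0.23, adjusted p = 0.002).

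Imprinted genes were higher at 14 of 21 tested and lower at 3, with a median of 0.44, beside 1.16 in PD032 and 1.30 in Aurka inh. Cdkn1c, a growth-restraining cyclin-dependent kinase inhibitor, rose from 2.14, 1.56 and 1.95 CPM to 6.68, 7.1 and 7.62 CPM (1.92, SE 0.15, adjusted p = 5.4e-08). Kcnq1ot1, the long noncoding RNA antisense to Kcnq1, rose from 3.77, 4.6 and 2.87 CPM to 11.5, 18.1 and 10.5 CPM (1.83, SE 0.32, adjusted p = 0.00023), on counts for which the use of strand is not stated. Slc38a4, an amino acid transporter, had 1.04, 1.35 and 1.04 CPM in 2iLif and 5.02, 21.4 and 5.83 CPM in the combination (3.20, SE 0.73, adjusted p = 0.0018). Replicate 2 carried much of that size, and without it the difference was 2.24 (adjusted p = 0.0078).

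Germline genes silenced by DNA methylation in somatic cells were higher at 9 of 14 tested and lower at none, with a median of 0.91 that was 0.65 with GC-corrected counts. Hormad1, a meiotic chromosome axis gene, rose from 3.38, 3.18 and 2.6 CPM to 13.4, 21.5 and 12.6 CPM (2.36, SE 0.31, adjusted p = 1.1e-05). Dazl, an RNA-binding protein of germ cells, rose from 4.68, 3.52 and 4.75 CPM to 11.5, 29.4 and 13 CPM (2.04, SE 0.41, adjusted p = 0.00072), and the difference was 1.5 (adjusted p = 0.0029) without combination replicate 2. Ddx4 had 6.76 to 7.41 CPM against 6.58 to 7.7 CPM and did not pass (0.00, interval -0.46 to 0.46). For the first 2 genes the highest of all 6 libraries was combination replicate 2.

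For markers of other cell types, in bulk RNA fewer cells of a type and less RNA per cell cannot be told apart. The 10 primitive endoderm markers summed to 6.12 to 7.67 CPM in 2iLif and 2.33 to 3.34 CPM in the combination, with 2 of 6 tested lower. Gata4 fell by 2.57 (adjusted p = 2.7e-06) and Sox7 by 3.33 (adjusted p = 1.2e-05), while Gata6 and Sox17 had too few counts to be tested. The 14 primitive streak and mesoderm markers summed to 21 to 23.1 CPM in 2iLif and 8.1 to 9.66 CPM in the combination, with 5 of 9 tested lower and 1 higher; Msgn1 was at 0 in all 6 libraries. T, the mesoderm factor Brachyury and a Wnt target, had 3.96, 4.67 and 4.75 CPM in 2iLif and 0.921, 0.783 and 1.21 CPM in the combination (-2.18, SE 0.22, adjusted p = 7.7e-07).

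Neuroectoderm markers differed by gene, with 4 of 7 tested higher and 2 lower. They summed to 94.7 to 97.9 CPM in 2iLif and 115 to 128 CPM in the combination. Most of the sum was Tubb3, at a mean of 78.5 CPM in 2iLif and 87.7 CPM in the combination, which was held within 2-fold. Nes rose from a mean of 7.31 to 19.6 CPM. Zic1, Neurog2, Olig2 and Six3 were at 0 in all 6 libraries, and Six3 was tested only through its counts in the other media. Pax6 rose from 0.195, 0.473 and 0.26 CPM to 5.06, 2.14 and 5.45 CPM (3.77, SE 0.52, adjusted p = 2.0e-05), and the Notch ligand gene Dll1 from 0.065, 0.271 and 0.26 CPM to 2.44, 3.76 and 2.96 CPM (3.89, SE 0.31, adjusted p = 4.3e-08). Sox1, the earliest neuroectoderm marker, went the other way, from 2.01 to 2.98 CPM to 0.276 to 0.333 CPM (-2.92, SE 0.27, adjusted p = 3.1e-07). Trophoblast markers summed to 16.3 to 17.8 CPM in 2iLif and 14.9 to 21.3 CPM in the combination, with 1 of 6 tested higher and 1 lower and Tpbpa at 0 in all 6 libraries. The fibroblast markers summed to at most 7.29 CPM in any of the 6 libraries, with 1 of 4 tested higher and 1 lower and Dcn, Lum and Postn at 0. The part of other cells in the results above was not tested.

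Of 15 listed genes of the 2-cell-like state, 14 were in the table and none of them had enough counts to be tested. Interferon and MHC class I genes were lower at 6 of 11 and higher at none, with a median of -0.28. Of the 11, Psmb8 was at 0 in all 6 libraries and was tested only through its counts in the other media. Ifitm3, a membrane restriction factor also expressed in pluripotent cells, went from 118, 126 and 130 CPM to 48.2, 42.3 and 44.6 CPM (-1.47, SE 0.099, adjusted p = 6.9e-09).

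Outside the lists, the largest increases among genes reaching a mean of 10 CPM were led by Enpp2, encoding the lysophospholipase autotaxin. It had 0.13, 0.0676 and 0.195 CPM in 2iLif, which is 6 counts in all, and 11.9, 10.1 and 10.7 CPM in the combination (6.30, SE 0.37, adjusted p = 1.3e-09). Crabp2, a retinoic acid carrier, rose from 0.585, 0.744 and 0.521 CPM to 15.6, 19.4 and 17.2 CPM (4.80, SE 0.18, adjusted p = 7.5e-12). Ror1, a receptor for Wnt5a, rose from 2.73, 2.84 and 2.41 CPM to 64.2, 47.4 and 57.4 CPM (4.40, SE 0.15, adjusted p = 3.4e-12). Their means were also above 2iLif in each single inhibitor, at 43.5, 102 and 68.2 CPM in PD032 and 76.9, 28.7 and 34.8 CPM in Aurka inh. The rest of the 10 were Cyp1a1 and Lefty1, described above, and Thbs2, Lrrk2, Vrtn, Runx1t1 and Adamts14, with log2 differences from 3.54 to 4.39.

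The largest decreases were led by Socs3, followed by Nkx6-2, a homeobox gene, which went from 40.6, 39.3 and 41.4 CPM to 0.0921, 0.157 and 0.291 CPM (-7.72, SE 0.29, adjusted p = 7.3e-12). Bcl3, Spry4, Gbx2 and Trpm1 are described above. The other 4 were Slc52a3, a riboflavin transporter gene (-5.42), Grin1, an NMDA receptor subunit gene (-4.98), Padi2, a peptidylarginine deiminase gene (-4.83), and Lad1, encoding the anchoring filament protein ladinin (-4.70). Grin1 went from 26.7, 28.7 and 34.3 CPM to 1.2, 0.888 and 0.749 CPM. By the naming rule, no combination library of these 20 genes overlapped the 2iLif range.

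Genes that follow the naming style were counted because a batch could sit there. At 1340 genes, 8.8% of those tested, all 9 inhibitor libraries lay on one side of the 6 libraries of 2iLif and FGF2/Activin, 644 above and 696 below. Pseudogenes were 165 of these 1340 genes, beside 756 of all 15223 genes tested, a larger share among the divided genes. The divided genes made up 275 of the 983 genes beyond 2-fold (28.0%). The other 708 had levels that the style does not divide. Of the genes named above, the divided ones include Cyp1a1, Ror1, Lrrk2, Runx1t1, Adamts14, Nkx6-2, Lad1, Spry4, Gbx2, Tdgf1, Dppa3, Junb, Pim3, Myc, Smad7, Lats2, Crb3, Llgl2, Sox7 and Kcnq1ot1. In the cell cycle and stress lists they include Mki67, Cenpf, Nek2, Ccne1, Tk1, Ccng1, Eda2r, Chac1, Hspa5 and Hsp90b1. The levels of Socs3, Bcl3, Klf4, Tfcp2l1, Otx2, Dnmt3b, Sp5, Lama1 and Kit were not divided by style. Whether the division at these genes comes from the media or from a batch cannot be told apart.

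Gene classes were counted too, beside the 23.8% of all genes called in each direction. Long noncoding genes were higher at 315 of 1028 tested (30.6%) and lower at 61 (5.93%). They took 0.924% to 0.935% of counts in the combination against 0.65% to 0.685% in 2iLif. Their share was 0.616% to 0.641% in FGF2/Activin and 0.876% to 0.991% in the single inhibitors, so it went with the naming style. Pseudogenes were higher at 98 of 756 and lower at 202. Ribosomal protein genes were higher at 7 of 82 and lower at 2, and mitochondrially encoded genes at 1 and 1 of 11. Small RNA genes were higher at 24 of 80 and lower at none, with a median log2 difference of 0.69. They took 0.0929% to 0.163% of counts, within the 0.0517% to 0.37% of 2iLif. Replication histone genes were higher at 3 of 12 and lower at none, with a median of 0.53. They took 0.00176% to 0.0022% in the combination against 0.000901% to 0.0014% in 2iLif. FGF2/Activin had 0.00118% to 0.00146% and the single inhibitors 0.00201% to 0.00232%, so this share also went with the style. Whether library preparation had a part in these classes was not tested.

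Base composition and the X chromosome showed small shifts across many genes. In 5 equal classes of protein-coding genes by transcript GC content, the median log2 difference went from 0.121 in the lowest class (917 higher, 308 lower) to -0.098 in the highest (490 higher, 912 lower). Of 551 X-linked genes tested, 201 were higher and 70 lower, with a median of 0.22, while the medians of the 19 autosomes lay between -0.05 and 0.063. The 3 combination libraries gave X medians from 0.206 to 0.225, and the median was 0.145 with GC-corrected counts. In each class of GC content the X median was above the autosomal one. PD032 had an X median of 0.194 against 2iLif, Aurka inh 0.274 and FGF2/Activin 0.11, and these share the 2iLif libraries.

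**Figure D5:**
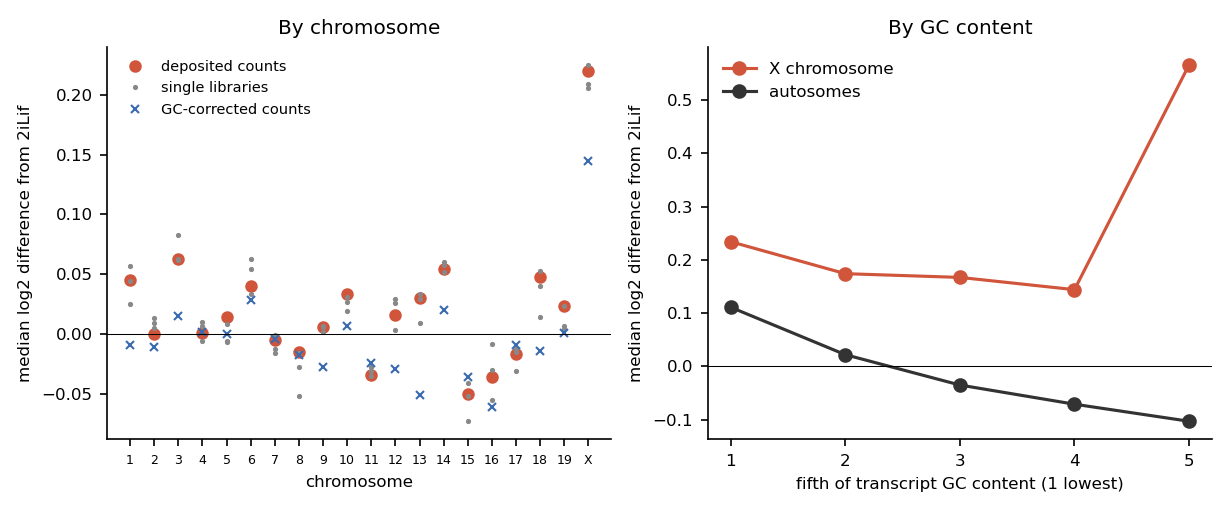
Left, median log2 difference between the combination and 2iLif by chromosome, for deposited counts, single combination libraries and GC-corrected counts; the X chromosome lies at 0.22 and the autosomes between -0.05 and 0.063. Right, the same median by class of transcript GC content for X-linked and autosomal protein-coding genes; autosomal medians decline with GC content, and the X medians lie above them in each class.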

How the data were processed

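The deposited table held whole-number counts per gene for 15 libraries of poly(A)-selected RNA. Per the submitters' processing notes, mm10, STAR and DESeq2 were used; no version, counting tool or strand setting for counting was given in the sources used here. The deposited normalized table was not used. Identifiers of 49326 of 49585 genes matched GENCODE M21.

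Counts were fitted in edgeR 4.0.16 (R 4.3.3) over all 15 libraries with a term per group, TMM scaling and filterByExpr, and quasi-likelihood p-values were adjusted over 15223 genes. Differences beyond 2-fold were tested with glmTreat, and 95% intervals came from limma-voom (limma 3.58.1). Each SE is the absolute log2 difference over the square root of the quasi-likelihood F statistic. SE and interval thus come from different models and can disagree in width. CPM are counts over TMM-scaled totals. DESeq2 1.42.0 and the settings named at the end were alternatives; GC-corrected counts and a block among the 6 libraries were added after seeing the data. The fit was also run on simulated counts with the same spread for every gene and group and no replicate effect. Here the spread ran from 1.79% to 11.1% by group, so the outcome describes the code and not these data. In it, 10 of 14519 unchanged genes were called and 94.5% were held within 2-fold. Of genes set at 2-fold, 84.8% were called and 0% passed as beyond 2-fold. At 4-fold, 93.9% passed as beyond 2-fold.

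The comparison and the members of the 30 gene lists were chosen with earlier results of these data known. Named genes are the 10 highest and 10 lowest by log2 difference that passed, reached a mean of 10 CPM and did not overlap, up to 4 members of each list that moved most, up to 2 abundant held ones, and a fixed set. Others are marked as chosen later or appear as motif matches, as zeros or as untested. Promoters are from RefSeq, on GRCm38.p6. Intervals on low counts cover counting error only.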

Additional observations from a re-analysis of the deposited data

How the results depend on the processing

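The total of genes beyond 2-fold was 983, and it was 636 with DESeq2 and 2066 for a bound of 1.5-fold; the cause of the first was not tested, and the second follows from the bound. The totals higher, lower and held within 2-fold stayed within 1.5 times in every setting run: another size factor, library size alone, DESeq2, limma-voom with group weights, 2 other filters, the 6 libraries alone, no pseudogenes, GC-corrected counts and each library left out. With library size alone 3905 genes were higher and 3310 lower, 54.1% higher of those called against 49.9%. With 1 library left out, totals ran from 3020 to 3535 higher, 3165 to 3504 lower, 842 to 985 beyond 2-fold and 9776 to 9941 held.

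The replicate numbers do not pair the combination with 2iLif. Same-numbered libraries of the 2 groups had correlations of deviations of 0.0493, -0.0384 and -0.0447, and differently numbered ones -0.0633 to 0.0845. Pairing among the 3 inhibitor groups was not tested. At Egr1, replicate 2 was the lowest library of each, at 0.783 CPM in the combination, 0.644 CPM in PD032 and 24 CPM in Aurka inh. At Dazl it was the highest of each, at 29.4, 19.8 and 14.2 CPM. The main fit takes all libraries as independent. A replicate block in the fit of 15 libraries gave 3914 higher, 3953 lower, 1061 beyond 2-fold and 10356 held, and a block among the 6 libraries 3350, 3378, 937 and 10206.

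Of 208 named genes tested, 169 kept their direction and their side of the threshold in every setting, and 8 changed direction in at least 1, none of them passing in either. Without 1 library Rif1 ran from -0.07 to 0.078, Lin28b from -0.041 to 0.2 and Mcm3 from -0.0037 to 0.052. With GC-corrected counts Rif1 was -0.16 and Lin28b -0.12. Hmgcs1 was -0.024 and Srebf2 0.014 with GC-corrected counts. Amotl2 was 0.023 with library size alone, 0.0043 and 0.0063 with the other filters, 0.0049 in the 6 libraries, 0.0047 with a block among them, -0.032 to 0.018 without 1 library and 0.092 with GC-corrected counts. Gsta4 was 0.028, 0.0096, 0.012, 0.0099 and 0.00023 in the first 5 of those settings and -0.12 to 0.098 without 1 library. Ddx4 was -0.00064 with DESeq2, -0.0058 with the replicate block, -0.0041 without pseudogenes, -0.12 with GC-corrected counts and -0.074 to 0.044 without 1 library. Their causes were not tested. Depth limits genes under 1 CPM, of which 9.1% were held.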

Other observations

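Some listed genes sat at a few counts in one medium and are given here as counts over the 3 libraries of each group, with exact intervals on the ratio of counts relative to library totals; they were picked after their values were seen. Wnt3, a ligand of the primitive streak, had 38 counts in the combination and 2 in 2iLif, a ratio of 13.3 with an interval from 3.45 to 114. Gata2, a factor of trophoblast and blood, had 26 counts in 2iLif and 3 in the combination, a ratio of 12.4 with an interval from 3.79 to 63.8. Osmr, the oncostatin M receptor, had 15 counts in 2iLif and 1 in the combination, a ratio of 21.4 with an interval from 3.29 to 900.

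A pair of genes had no count in any 2iLif library. Lgr5, a receptor for R-spondins and a Wnt target in the intestine, had 13 counts in the combination and was at least 3.04-fold higher there, against a floor of 3 counts over the 2iLif group. Asz1, a germ cell gene silenced by DNA methylation in somatic cells, had 10 counts and was at least 2.34-fold higher by the same floor. The libraries of the 2 groups carried different total counts, and these intervals and floors cover counting error only.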
